A study of Mus musculus with 24 samples.

Results

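The effect of dexamethasone (Dex) added to house-dust mite (HDM) challenge was described in lung RNA of aged mice. The 7 samples labeled HDM + Dex at 80 wk were compared with the 7 samples labeled HDM at 80 wk, as their sample labels give the groups, so that 14 of the 24 samples of the series enter the comparison. All 14 came from C57BL/6 mice that received HDM at 50 µg per dose into the nose, with the last dose on day 27 and tissue taken 24 h later. The HDM + Dex mice also received Dex at 4 mg/kg every 72 h by intraperitoneal injection. The remaining samples are 5 saline lungs at 80 wk, which shared the estimate of the spread, and 5 naïve lungs at 20 wk. The labels give the left lung lobe as the source and the study's methods mice of both sexes, so each value is an average over all cells of a piece of lung that also holds airways and vessels.

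Dex is a synthetic glucocorticoid. It binds the glucocorticoid receptor, which enters the nucleus, raises genes such as Fkbp5, Tsc22d3 and Per1, and restrains inflammatory transcription driven by NF-κB and AP-1. The airways are lined by multiciliated cells, whose motile cilia are moved by dynein arms on an axoneme of microtubules, and by secretory club and goblet cells. HDM is an aeroallergen that draws leukocytes into the lung, and plasma cells there and elsewhere secrete immunoglobulins.

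Expression was given by the authors as CPM, counts on genes scaled to the same total in every sample. Of 23891 genes, 17744 averaged 1 CPM or more across the series and were tested with limma on log2(CPM + 1), a scale that understates the change of low genes. A gene was called at an adjusted p under 0.05. In the 14 samples, 10.03 to 33.05 M reads were estimated on genes, and the detection limit, set at 3 reads, was 0.0908 to 0.299 CPM. HDM replicate 3 had the fewest reads and no read for 3275 genes. Xist exceeded Ddx3y, read as female, in 2 HDM and 4 HDM + Dex samples, and Ddx3y was higher, read as male, in 5 and 3. RNA of the signal recognition particle (7SL) took 14.96% to 34.0% of CPM in HDM and 11.3% to 31.6% in HDM + Dex samples (exact permutation test, two-sided, p = 0.493). It took 27.1% to 34.0% in male and 14.96% to 15.4% in female HDM samples, so that sex and 7SL share cannot be told apart within the HDM group.

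Dex raised genes of the motile cilium and lowered immunoglobulin genes, 4 collagen chains, and the single genes Nos2 and Il1rn. The cilium and immunoglobulin changes were larger in samples read as male than in those read as female. In total 171 genes (0.964% of those tested) were called, 133 higher and 38 lower with Dex, and 2389 (13.5%) had an unadjusted p under 0.05. Over all genes tested the log2 fold change had a median of 0.03. Scaling by median-of-ratios factors raised the count to 505 (2.85%), of which 352 were higher (1.98%) and 153 lower (0.862%). With sex as a covariate 293 genes passed, 129 higher and 164 lower. Within samples read as male 304 genes were called, 211 of them higher. Within those read as female, with 2 in the HDM group, 0 were called, and 0 passed for the difference between the sexes. The count moved with the scaling, with the saline samples that share the estimate of the spread, and with single libraries. With only the 14 samples in the fit and the CPM as deposited 1 gene passed, and 2123 had an unadjusted p under 0.05. With only the 14 samples and median-of-ratios factors, a combination chosen after seeing the data, 202 passed, 144 higher and 58 lower, 133 of the 171 among them. Without HDM replicate 1, 3, 4 or 5 there were 3, 8, 4 and 2 calls, and without HDM + Dex replicate 1, 3, 4 or 5 there were 3, 8, 3 and 3. Without HDM replicate 2, 6 or 7 there were 544, 457 and 292 calls, and without HDM + Dex replicate 6 or 7 there were 434 and 92. In all of these fits the 171 genes kept their direction and an unadjusted p under 0.05. They were chosen by their p in the main fit, and these fits reuse most of its samples, so this is no separate test. In a two-sided exact permutation test of the 14 samples, 1951 genes had an unadjusted p under 0.05 and 0 passed after Benjamini-Hochberg adjustment (smallest adjusted p = 0.259). No source used here says that samples of a group came from separate cages or batches, and p-values measure only the spread between these samples.

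**Figure D1:**
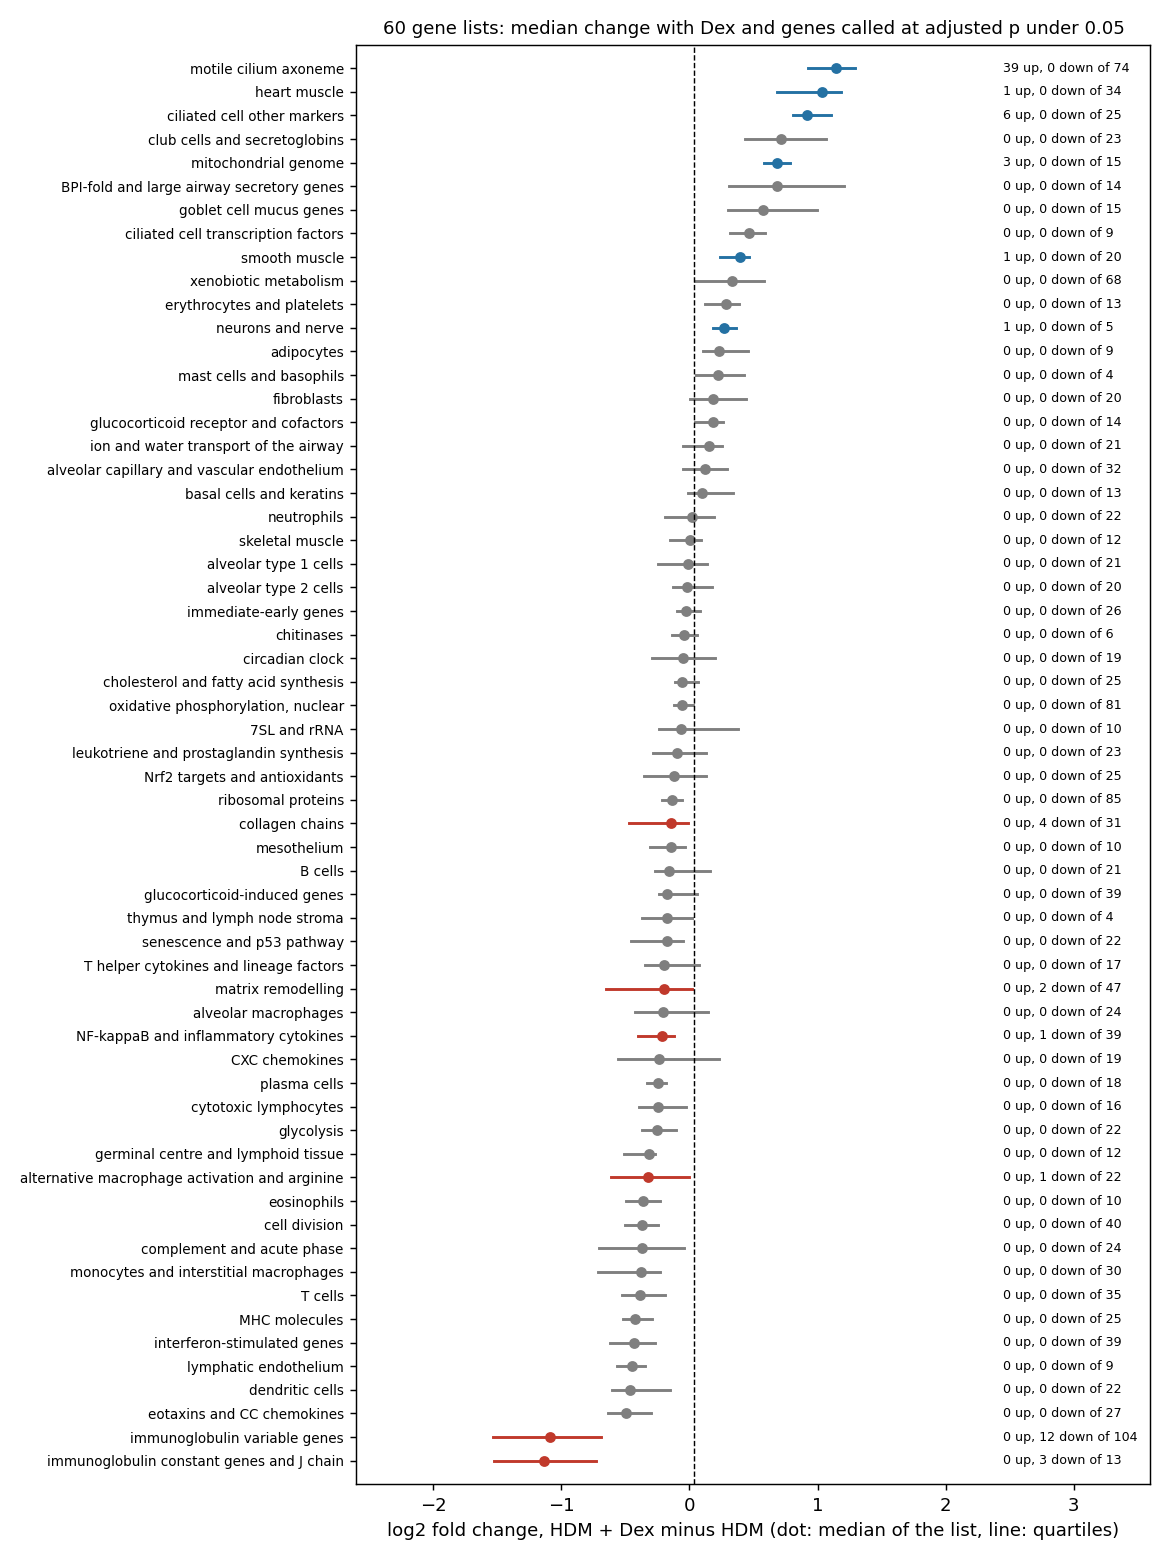
Median log2 fold change (HDM + Dex minus HDM) of 60 gene lists on the x axis, with the quartiles of each list as a line and the median of all genes tested as a dashed line. Blue lists hold genes called higher and red lists genes called lower, and the list of the motile cilium axoneme is at the top with 39 of 74 genes called higher.

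Of the 74 tested genes on the list of the motile cilium axoneme, 39 were called higher and 0 lower, against 0.75% of all genes called higher. Their median log2 fold change was 1.15, 73 of the 74 were above 0, and 69 had an unadjusted p under 0.05 in the higher direction, against 8.5% of all genes. Of the 25 other ciliated cell markers, 6 were called higher, and the median was 0.92. The genes encode the outer and inner dynein arms, the docking and nexin-dynein complexes, the radial spokes and the central pair. In bulk tissue, more cells of a type, more RNA per cell and more airway in the piece of lung cannot be told apart. The lists of heart muscle and smooth muscle also had medians above 0, at 1.03 and 0.40. The part of unequal shares of airway and vessel between pieces was not tested. The call count of the motile cilium axoneme was 60 after median-of-ratios rescaling, 34 with sex as a covariate, 0 with only the 14 samples, 40 with only the 14 samples and median-of-ratios factors, and 1 without HDM replicate 3. It was 0 or 1 without any of HDM replicates 1, 3, 4 and 5 or HDM + Dex replicates 1, 3, 4 and 5, and 13 without HDM + Dex replicate 7. In every one of those fits at least 65 of the 74 had an unadjusted p under 0.05.

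The promoters of 4 called axoneme genes are shown because they hold a loose match to the X-box, the site bound by RFX factors of ciliated cells. The sequences are the 250 bases before the gene start, from RefSeq on GRCm38.p6, 5′ to 3′ on the gene's strand. Capitals mark a match, on either strand, to a loose form of the X-box, GTNNCC followed after 3 bases by GNAAC. The 4 genes, outside the rule for named genes, were those with the largest log2 fold change among the called members that hold it.
Cfap44: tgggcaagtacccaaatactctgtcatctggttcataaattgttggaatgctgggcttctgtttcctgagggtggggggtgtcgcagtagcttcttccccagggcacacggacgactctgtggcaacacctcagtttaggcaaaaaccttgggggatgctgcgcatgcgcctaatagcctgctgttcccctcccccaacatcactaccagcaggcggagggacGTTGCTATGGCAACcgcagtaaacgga
Hydin: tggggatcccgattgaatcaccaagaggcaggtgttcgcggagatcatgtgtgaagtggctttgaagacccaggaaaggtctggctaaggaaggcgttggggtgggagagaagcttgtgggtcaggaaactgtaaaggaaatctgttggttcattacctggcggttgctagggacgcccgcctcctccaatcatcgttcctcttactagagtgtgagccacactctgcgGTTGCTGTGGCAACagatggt
Ccdc151: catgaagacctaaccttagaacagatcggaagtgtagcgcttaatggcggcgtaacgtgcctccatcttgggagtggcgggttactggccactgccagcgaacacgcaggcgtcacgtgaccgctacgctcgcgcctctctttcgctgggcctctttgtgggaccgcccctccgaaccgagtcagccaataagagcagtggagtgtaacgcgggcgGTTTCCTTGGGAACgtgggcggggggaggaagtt
Spag16: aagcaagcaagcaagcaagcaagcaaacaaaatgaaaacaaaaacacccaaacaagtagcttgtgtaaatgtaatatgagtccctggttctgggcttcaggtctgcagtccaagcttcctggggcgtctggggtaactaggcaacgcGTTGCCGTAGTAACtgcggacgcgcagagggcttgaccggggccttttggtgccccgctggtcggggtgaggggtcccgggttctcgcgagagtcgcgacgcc

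The windows lie at chr16:44394549-44394798 on the plus strand (Cfap44), chr8:110266727-110266976 on the plus strand (Hydin), chr9:22002635-22002884 on the minus strand (Ccdc151) and chr1:69826720-69826969 on the plus strand (Spag16). The match starts 27 bases before the gene start in Cfap44, 21 in Hydin, 34 in Ccdc151 and 103 in Spag16. RefSeq windows were found for 60 of the 74 axoneme genes and for 11583 of all genes tested. The pattern was present in 8 of the 60 (13.3%) and in 311 of the 11583 (2.68%). The shorter pattern GTTGCC, on either strand, was present in 17 of the 60 (28.3%) and in 1466 of the 11583 (12.7%). Closer forms of the X-box were rarer: GTNNCC followed after 2 bases by GGNAAC was in 3 of the 60 (5%) and in 1.66% of all, and with 1 base between in 1 of the 60 (1.67%) and in 0.613%. GTTGCC followed by ATGG was in 1 of the 60 and in 0.544% of all, and GTNGCC followed after 2 bases by GG in 7 of the 60 (11.7%) and in 9.53%. The forkhead forms TGTTTAC and TGTTTG were in 3 (5%) and 10 (16.7%) of the 60, and in 2.87% and 14.3% of all. These matches describe the letters only. With Dex, Hydin, a central pair protein, rose by a log2 fold change of 1.36 (SE 0.29, limma adjusted p = 0.0295). Cfap44 rose by 1.38 (SE 0.31, limma adjusted p = 0.0356), Ccdc151, a dynein docking protein, by 1.28 (SE 0.31, limma adjusted p = 0.0496) and Spag16, of the central pair, by 1.16 (SE 0.25, limma adjusted p = 0.0295).

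Among genes of the cilium the clearest separation was in Ccdc180, which lies on chromosome 4 from 45890303 to 45950774 (GRCm38). The HDM samples had 12.5 to 29.03 CPM with a median of 15.3, the HDM + Dex samples 35.0 to 66.6 with a median of 41.8, and the saline samples 35.1 to 50.3. Every HDM + Dex sample was above every HDM sample, as in 0.147% of all genes. Its log2 fold change was 1.30 (SE 0.19, limma adjusted p = 0.00685), and it was also called without each of the 14 samples in turn, while with only these samples in the fit it was not.

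Dnah5, a heavy chain of the outer dynein arm, had 18.4 to 87.5 CPM with a median of 34.2 in HDM samples. It had 59.0 to 167 CPM with a median of 117 in HDM + Dex samples and 103 to 168 in saline samples. The groups overlapped, with 5 of the 7 HDM + Dex samples above the highest HDM sample, and the log2 fold change was 1.41 (SE 0.30, limma adjusted p = 0.0292). Dnaic2, an intermediate chain of the same arm, rose from a median of 5.91 to 22.4 CPM with a log2 fold change of 1.46 (SE 0.29, limma adjusted p = 0.027). Ccdc39 and Ccdc40 form the ruler that sets the repeat of the axoneme, and their log2 fold changes were 1.42 and 1.44. Drc1, a subunit of the nexin-dynein regulatory complex, had 3.28 to 20.4 CPM in HDM and 11.0 to 39.1 in HDM + Dex samples, and all but 1 of the latter were above the highest HDM sample. The radial spoke head gene Rsph4a rose by 1.25 and the adenylate kinase genes Ak7 and Ak9 by 1.67 and 1.10 on the log2 scale. Ak9 had 5.37 to 13.5 CPM in HDM and 14.9 to 27.1 in HDM + Dex samples, without overlap. Spag6l of the central pair, Ccdc113 and Cfap53 rose by 1.46, 1.58 and 1.47.

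The transcription factors of ciliated cells did not pass the test, with 0 of 9 called, where 0.964% of all genes were. A count of 0 in a list of this size is near that share. At an unadjusted p under 0.05, 5 of the 9 were higher, against 8.5% of all genes. After median-of-ratios rescaling 1 was called higher. Foxj1, the factor that directs motile ciliogenesis, had 12.2 to 50.7 CPM with a median of 19.5 in HDM samples and 28.2 to 53.2 with a median of 45.2 in HDM + Dex samples. Its log2 fold change was 0.85 (SE 0.27, limma adjusted p = 0.124). Rfx3, an X-box binding factor, had 15.7 to 23.7 CPM in HDM and 21.1 to 41.7 in HDM + Dex samples, with a log2 fold change of 0.51 (SE 0.15, limma adjusted p = 0.102). Of the 9 factors, 8 had a log2 fold change above 0, where 56.2% of all genes did.

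**Figure D2:**
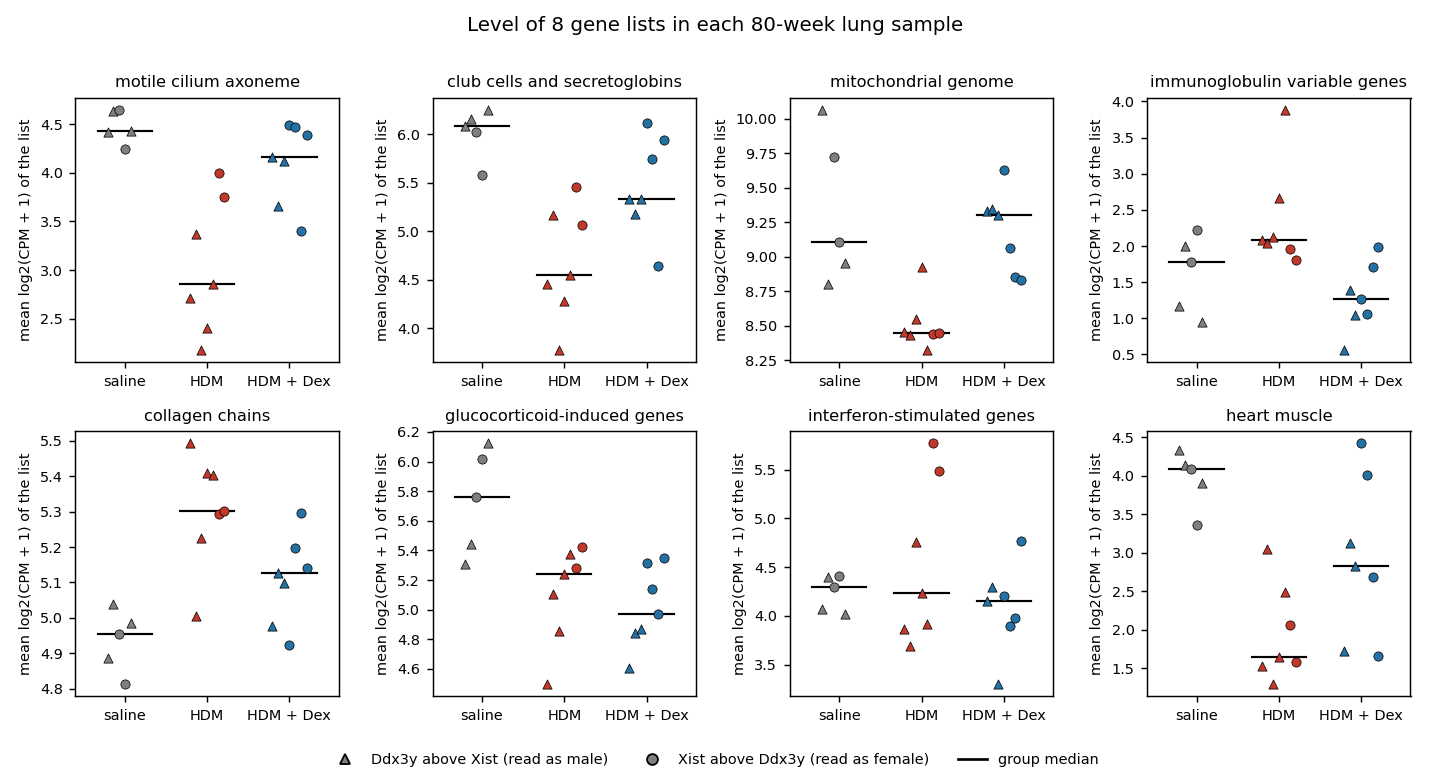
Mean log2(CPM + 1) of 8 gene lists on the y axis for each 80-week lung sample of the saline (n = 5), HDM (n = 7) and HDM + Dex (n = 7) groups, with triangles for samples read as male, circles for samples read as female and a line at the group median. The cilium list runs from 2.18 to 3.99 in HDM and from 3.41 to 4.49 in HDM + Dex samples, and the interferon-stimulated list is highest in the 2 female HDM samples.

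The change in the list of the motile cilium axoneme was read within each sex. The mean log2(CPM + 1) of the list was 2.18 to 3.38 in male HDM samples (n = 5) and 3.66 to 4.16 in male HDM + Dex samples (n = 3), without overlap. It was 3.76 to 3.99 in female HDM samples (n = 2) and 3.41 to 4.49 in female HDM + Dex samples (n = 4), which overlapped. The median log2 fold change of the list was 1.38 in males and 0.35 in females. An unadjusted p under 0.05 was found for 70 of the 74 genes in males and for 1 in females. For Ccdc180 it was 1.58 and 0.70, and for Foxj1 it was 1.21 and −0.07. The difference between the sexes was tested in limma as an interaction. Of all 17744 genes 0 passed (smallest adjusted p = 0.557), and 981 had an unadjusted p under 0.05, among them 37 of the 74 axoneme genes. The female HDM samples were also those with the lowest 7SL share in their group, and the part of that share was not tested within sex.

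Secretory cells of the airway showed higher values with Dex that did not pass the test. Of 23 genes on the list of club cells and secretoglobins, 0 were called, where 0.964% of all genes were. In the higher direction 15 had an unadjusted p under 0.05, and 22 were above 0 (median 0.72), against 8.5% and 56.2% of all genes. After median-of-ratios rescaling 3 were called, and the list median stayed between 0.52 and 0.94 in all fits of both sexes together. Within males the list median was 0.76, with 13 of 23 at an unadjusted p under 0.05. Within females it was 0.23, with 3 of 23. Cyp2a5, a cytochrome P450 of club cells, had 2.44 to 12.5 CPM in HDM and 6.68 to 64.9 CPM in HDM + Dex samples (log2 fold change 1.67, SE 0.41, limma adjusted p = 0.05005). Scgb1a1, the main club cell secretoglobin, had 239.7 to 2306 CPM in HDM, 438 to 4185 CPM in HDM + Dex and 3875 to 5495 CPM in saline samples. Its log2 fold change was 1.16 (SE 0.44, limma adjusted p = 0.216). Bpifa1, a secreted protein of the large airway, ranged from no read to 24.2 CPM in HDM and from 0.984 to 43.2 CPM in HDM + Dex samples (log2 fold change 2.37, SE 0.67, limma adjusted p = 0.0875).

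None of the 15 genes on the list of goblet cell mucus genes was called, where 0.964% of all genes were. A count of 0 in a list of this size is near that share. Of the 15, 13 were above 0 (median 0.57), against 56.2% of all genes. At an unadjusted p under 0.05, 5 were higher and 1 lower, against 8.5% and 4.96% of all genes. In males the list median was 1.197, with 9 of 15 at an unadjusted p under 0.05 and 1 called. In females it was −0.05, with 0 of 15 at that p. Muc5ac, the gel-forming mucin induced in allergic airways, had 3.88 to 190 CPM with a median of 37.7 in HDM samples and 8.72 to 138 with a median of 94.8 in HDM + Dex samples (log2 fold change 0.51, SE 0.68, limma adjusted p = 0.818). Clca1, secreted by goblet cells, had a median of 133 CPM with HDM and 457 with HDM + Dex (log2 fold change 1.62, SE 0.70, limma adjusted p = 0.298). In both genes the ranges of the groups overlapped widely. The largest log2 fold change among genes called higher, 2.25 (SE 0.51, limma adjusted p = 0.0356), was that of A2ml1, a protease inhibitor related to alpha-2-macroglobulin. It had from under the detection limit to 26.1 CPM in HDM, 16.9 to 97.8 in HDM + Dex and 9.20 to 30.9 in saline samples, and 6 of the 7 HDM + Dex samples were above the highest HDM sample.

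Genes of the mitochondrial genome were higher with Dex. All 15 had a log2 fold change above 0 (median 0.68), 12 had an unadjusted p under 0.05 in the higher direction (8.5% of all genes), and mt-Co2, mt-Atp6 and mt-Nd2 were called higher (0.75% of all genes). mt-Nd2, a subunit of complex I, had 193 to 243 CPM in HDM and 256 to 694 in HDM + Dex samples, without overlap (log2 fold change 0.87, SE 0.21, limma adjusted p = 0.0454). mt-Co2, a subunit of cytochrome c oxidase, had 40.0 to 67.7 CPM in HDM and 63.8 to 128 in HDM + Dex samples (log2 fold change 0.93, SE 0.17, limma adjusted p = 0.027). Of the 81 nuclear genes of oxidative phosphorylation 0 were called, where 0.964% of all genes were, and their median was −0.06. On the list of the mitochondrial genome 0 were called with only the 14 samples, where 13 had an unadjusted p under 0.05, 3 with these samples and median-of-ratios factors, and 0 without any of HDM replicates 1, 3 and 5 or HDM + Dex replicates 1, 3, 4 and 5.

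The list of heart muscle had a median log2 fold change of 1.03, with 33 of 34 genes above 0 and 24 at an unadjusted p under 0.05 in the higher direction, against 8.5% of all genes. It held 1 called gene, Myom1 of the sarcomere (log2 fold change 0.98, SE 0.19, limma adjusted p = 0.027). The mean log2(CPM + 1) of heart muscle was 1.30 to 3.05 in HDM, 1.66 to 4.42 in HDM + Dex and 3.36 to 4.34 in saline samples. Its defining gene Myh6, the atrial myosin heavy chain, had 8.71 to 326 CPM in HDM and 24.3 to 897 CPM in HDM + Dex samples. The list of heart muscle and that of the mitochondrial genome were both highest in HDM + Dex replicate 4, at 4.42 and 9.63, but in the HDM group the former was highest in replicate 2, at 3.05, and the latter in replicate 4, at 8.93. The part of heart muscle in the rise of mitochondrial RNA was not tested. All 20 genes on the list of smooth muscle were above 0 (median 0.40), and 1 was called. This was Cnn1, calponin of contractile smooth muscle, with 7.56 to 13.6 CPM in HDM and 16.3 to 27.3 in HDM + Dex samples, without overlap (log2 fold change 0.83, SE 0.17, limma adjusted p = 0.027). Pclo, a presynaptic scaffold, rose by 0.85 (SE 0.17, limma adjusted p = 0.028).

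**Figure D3:**
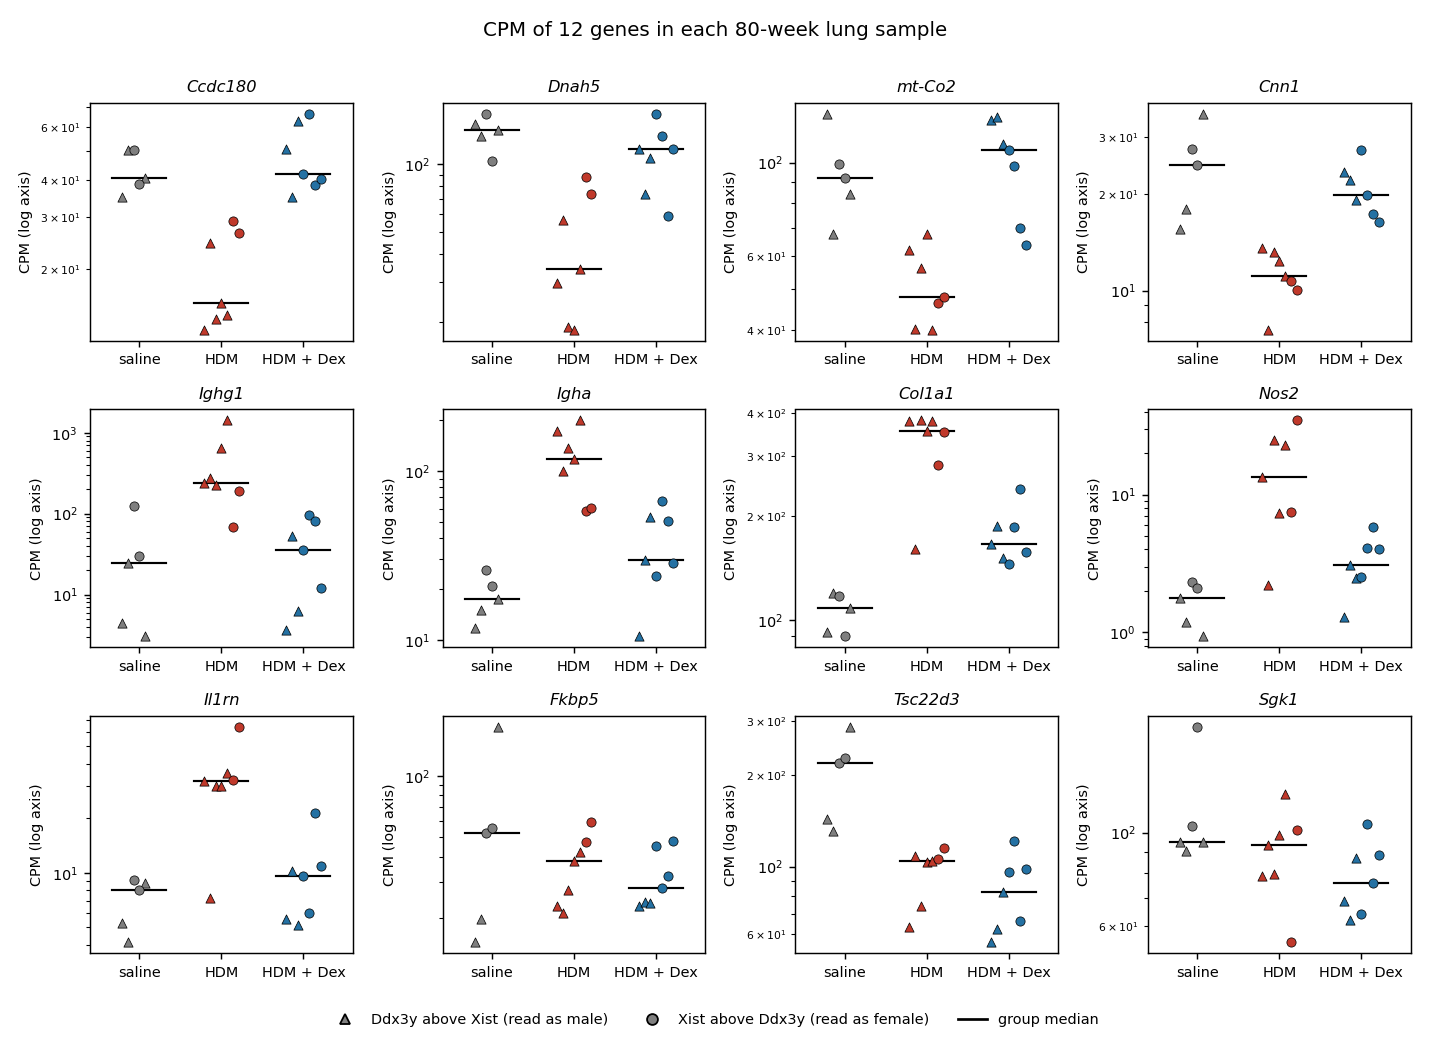
CPM of 12 genes on log axes for each 80-week lung sample of the saline (n = 5), HDM (n = 7) and HDM + Dex (n = 7) groups, with triangles for samples read as male, circles for samples read as female and a line at the group median. Ccdc180 and Cnn1 do not overlap between HDM and HDM + Dex samples, whereas Fkbp5, Tsc22d3 and Sgk1 overlap.

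Immunoglobulin genes held the largest decreases. Of 13 constant genes and J chain, Ighg1, Igha and Ighg2b were called lower, and of 104 variable genes 12 were called lower, where 0.214% of all genes were. The medians were −1.14 and −1.09, and 61 variable genes had an unadjusted p under 0.05 in the lower direction, against 4.96% of all genes. Reads of variable genes can be shared between near-identical copies, so that single members are uncertain. Ighg1, the constant region of IgG1, lies on chromosome 12 from 113325240 to 113330523. It had 68.6 to 1423 CPM with a median of 237 in HDM samples, 3.62 to 96.1 with a median of 35.4 in HDM + Dex samples and 3.07 to 124 in saline samples. The groups overlapped, with 5 of the 7 HDM + Dex samples below the lowest HDM sample, and Ighg1 fell by 3.52 on the log2 scale (SE 0.77, limma adjusted p = 0.0338). Igha, the constant region of IgA, had 58.4 to 199 CPM in HDM and 10.6 to 66.2 CPM in HDM + Dex samples, and fell by 1.72 on the log2 scale (SE 0.33, limma adjusted p = 0.027). Igkv12-46, a kappa variable gene, had 5.05 to 62.8 CPM in HDM and 0.186 to 4.33 in HDM + Dex samples, without overlap, as in 0.0789% of all genes in the lower direction. Unlike Ighg1, the lists were not low in saline samples. Summed CPM of the constant genes and J chain had medians of 5299 in saline, 1982 in HDM and 1183 in HDM + Dex samples. For the variable genes these were 952, 639 and 387. Medians of the mean log2(CPM + 1) were 5.51, 5.58 and 4.46 for the former list and 1.78, 2.08 and 1.27 for the latter.

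Ighe, of IgE, had 0.544 to 10.7 CPM in HDM samples and from no read to 4.38 CPM in HDM + Dex samples, and was not called (log2 fold change −1.52, SE 0.41, limma adjusted p = 0.0668). Of 18 plasma cell genes 0 were called (median −0.24), and of 21 B cell genes 0 (median −0.16), where 0.964% of all genes were. Counts of 0 in lists of these sizes are near that share. Jchain, which joins IgA and IgM and is also on the plasma cell list, had 130 to 599 CPM in HDM and 21.99 to 282 CPM in HDM + Dex samples (log2 fold change −1.14, SE 0.51, limma adjusted p = 0.309). On the list of immunoglobulin variable genes 0 were called with only the 14 samples, 13 with these samples and median-of-ratios factors, 4 without HDM replicate 3, at most 4 without any of HDM replicates 1, 4 and 5 or HDM + Dex replicates 1, 3, 4 and 5, and 19 to 22 without HDM replicate 2, 6 or 7 or HDM + Dex replicate 6. In males the median change of these variable genes was −1.53 and in females −0.40. The log2 fold change of Ighg1 was −5.12 in males and −1.39 in females.

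Of 31 collagen chains 4 were called, all lower, where 0.214% of all genes were, and these were Col1a1, Col1a2, Col3a1 and Col5a2 of types I, III and V. Among other fibrillar chains, Col5a1, Col5a3, Col24a1 and Col27a1 were not called, with log2 fold changes of −0.41, −0.55, −0.59 and 0.51. Col1a1 lies on chromosome 11 from 94936224 to 94953042, and had 161 to 381 CPM with a median of 354 in HDM samples, 145 to 240 with a median of 166 in HDM + Dex samples and 89.8 to 120 in saline samples. HDM replicate 2, at 161 CPM, lay among the HDM + Dex samples and the other HDM samples were above them. Col1a1 fell by 0.85 on the log2 scale (SE 0.17, limma adjusted p = 0.027), and Col3a1, Col5a2 and Col1a2 fell by 0.90, 0.79 and 0.72. The change of Col1a1 was −0.91 in males and −0.81 in females. Over all 31 chains, which include basement membrane types, the median was −0.14.

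On the matrix list 2 of 47 were called, both lower, against 0.214% of all genes. Lox, which crosslinks collagen, had 40.4 to 66.4 CPM in HDM and 23.7 to 39.7 in HDM + Dex samples, without overlap (log2 fold change −0.77, SE 0.18, limma adjusted p = 0.0372). Sparc, a collagen-binding glycoprotein, had 648 to 1210.3 CPM in HDM and 388 to 695 CPM in HDM + Dex samples, and fell by 0.75 on the log2 scale (SE 0.16, limma adjusted p = 0.0311). Without HDM replicate 2 the list of matrix remodelling held 13 calls and that of collagen chains 6. Without HDM + Dex replicate 6 each held 6 calls, and without HDM + Dex replicate 7 collagen chains held 1 and matrix remodelling 0. With only the 14 samples, or without any of HDM replicates 1, 3, 4 and 5 or HDM + Dex replicates 1, 3, 4 and 5, neither matrix remodelling nor collagen chains held a call, while with only the 14 samples and median-of-ratios factors matrix remodelling held 2 and collagen chains 1. The 20 fibroblast marker genes had 0 calls, where 0.964% of all genes were called, and a median of 0.18.

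Of 39 genes of NF-κB signalling and inflammatory cytokines 1 was called, Nos2, and 4 had an unadjusted p under 0.05 in the lower direction (4.96% of all genes), with a list median of −0.21. Nos2, the inducible nitric oxide synthase, had 2.21 to 34.6 CPM with a median of 13.4 in HDM samples, 1.30 to 5.82 with a median of 3.07 in HDM + Dex samples and 0.940 to 2.32 in saline samples. HDM replicate 2 again lay within the HDM + Dex range, and Nos2 fell by 1.69 on the log2 scale (SE 0.38, limma adjusted p = 0.0356). Il1rn, on none of the lists and the secreted antagonist of the interleukin-1 receptor, had 7.30 to 64.2 CPM in HDM and 5.17 to 21.5 in HDM + Dex samples, and fell by 1.599 on the log2 scale (SE 0.34, limma adjusted p = 0.0292). Gm21983, a predicted protein-coding gene, had 1.11 to 4.26 CPM in HDM samples and at most 0.336 in HDM + Dex samples, most of these under the amount of 3 reads. It was the single gene called with only the 14 samples in the fit (limma adjusted p = 0.0208), and was named after its values were seen.

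Several leukocyte lists lay below the median of all genes without calls. Of the list of mast cells and basophils only Kit, Hdc, Gata2 and Slc18a2 were tested (median 0.22). Its members Cpa3, Mcpt8 and Fcer1a averaged under 1 CPM, so that the list cannot describe these cells. No gene was called among 35 of T cells (median −0.38), 25 MHC molecules (−0.43), 22 of dendritic cells (−0.46), 30 of monocytes and interstitial macrophages (−0.38), 39 interferon-stimulated genes (−0.43) and 27 of CC chemokines and their receptors (−0.49). Counts of 0 in lists of these sizes are near the share of all genes called, 0.964%. Of the 39 interferon-stimulated genes and of the 25 MHC molecules, 0 had a log2 fold change above 0. With an unadjusted p under 0.05 6 T cell genes, 9 of MHC, 9 of dendritic cells, 12 of monocytes and interstitial macrophages, 7 interferon-stimulated genes and 6 of CC chemokines were lower, against 4.96% of all genes. The last list and that of monocytes and interstitial macrophages each had 1 gene higher. With sex as a covariate 5 genes on the list of T cells, 3 on that of dendritic cells and 2 on that of MHC molecules were called lower. On that of interferon-stimulated genes 1 was, and of all 17744 genes 164 were in that fit. Fscn1, a marker of mature dendritic cells, had 11.2 to 47.3 CPM in HDM and 4.08 to 16.9 in HDM + Dex samples (log2 fold change −1.19, SE 0.30, limma adjusted p = 0.0594). Ccl9, a chemokine of macrophages, had 24.1 to 297 CPM in HDM and 18.0 to 101 CPM in HDM + Dex samples (log2 fold change −1.38, SE 0.39, limma adjusted p = 0.0893). The class II gene H2-Eb1 had a median of 299 CPM in HDM and 199 in HDM + Dex samples (log2 fold change −0.69, SE 0.23, limma adjusted p = 0.15).

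The 2 female HDM samples, replicates 6 and 7, had the highest interferon-stimulated levels. The list was at 5.49 and 5.77 in them, at 3.69 to 4.76 in the male HDM samples and at 3.30 to 4.76 in all HDM + Dex samples (mean log2(CPM + 1)). The median log2 fold change of the list was −1.46 in females and −0.15 in males. Of its 39 genes, 28 had an unadjusted p under 0.05 for the interaction, as had 981 of all 17744 genes, and 0 passed adjustment. The 2 female samples also exceeded all male HDM samples on the list of MHC molecules, at 7.12 or more against at most 6.51. So they did on those of T cells, NF-κB signalling and dendritic cells, but not of monocytes and interstitial macrophages or CC chemokines. Median changes in females and males were −0.76 and −0.39 for MHC molecules and −0.74 and −0.38 for T cells. They were −0.64 and −0.25 for NF-κB signalling, −0.50 and −0.55 for dendritic cells and −0.40 and −0.59 for CC chemokines.

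**Figure D4:**
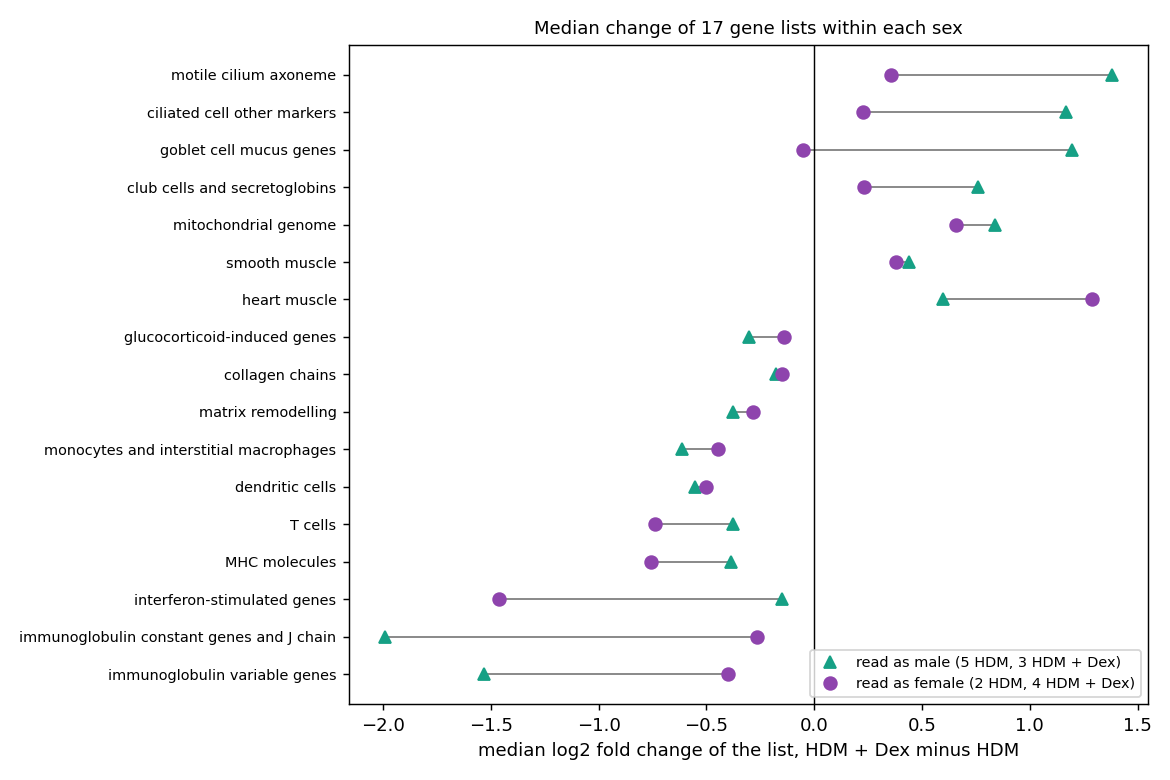
Median log2 fold change (HDM + Dex minus HDM) of 17 gene lists on the x axis, within samples read as male (triangles, 5 HDM and 3 HDM + Dex) and as female (circles, 2 HDM and 4 HDM + Dex). The cilium lists are higher in males, at 1.38 and 1.17, than in females, at 0.35 and 0.23, and the interferon-stimulated list is at −1.46 in females and −0.15 in males.

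Lists of neutrophils (22 genes, median 0.02), eosinophils (10, −0.36), chitinases (6, −0.04), type 2 alveolar cells (20, −0.02), type 1 alveolar cells (21, −0.01) and vascular endothelium (32, 0.12) held no call. Of all genes 0.964% were called, and counts of 0 in lists of these sizes are near that share. Neutrophil genes had a median of 0.42 in males, with 19 of 22 above 0, and of −0.76 in females, with 0 of 22 above 0, where HDM replicate 7 had a list level of 4.83 and the next HDM sample 3.19. S100a8 and S100a9, calcium-binding proteins of neutrophils, had log2 fold changes of 0.13 (SE 0.39) and 0.02 (SE 0.45). Chil4 had the largest log2 fold change of the chitinase list, at 1.48, and was not called. Its change was 1.74 in males and 2.37 in females. Retnla and Chil3, products of alternatively activated macrophages, had log2 fold changes of 0.18 (SE 0.59) and −0.62 (SE 0.41). Arg1, arginase of such macrophages, had 4.95 to 570 CPM in HDM and 3.08 to 148 in HDM + Dex samples (log2 fold change −1.73, SE 0.88, limma adjusted p = 0.406). The eotaxin genes Ccl11 and Ccl24 had log2 fold changes of −0.65 (SE 0.60) and −1.20 (SE 0.92). In each of these genes the ranges of the groups overlapped.

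Of the 39 genes on the list of known glucocorticoid-induced genes 0 were called, where 0.964% of all genes were. A count of 0 in a list of this size is near that share. Their median was −0.17, and 12 were above 0, against 56.2% of all genes. The hours from the last Dex injection to tissue collection are not stated in the study's methods. Fkbp5, a co-chaperone of the receptor, had 21.2 to 59.2 CPM with a median of 37.9 in HDM samples, 22.7 to 47.5 with a median of 27.9 in HDM + Dex samples and 15.1 to 174 in saline samples (log2 fold change −0.17, SE 0.37, limma adjusted p = 0.9). Tsc22d3, the leucine zipper protein GILZ, had 63.4 to 115 CPM in HDM and 56.3 to 121 CPM in HDM + Dex samples (log2 fold change −0.23, SE 0.19, limma adjusted p = 0.672). Per1 and Zbtb16 had log2 fold changes of −0.23 (SE 0.24) and −0.36 (SE 0.36), and Dusp1 had −0.08 (SE 0.35). Nr3c1, the receptor gene, had a median of 140 CPM with HDM and 139 with HDM + Dex (log2 fold change 0.02, SE 0.14). Among cofactors, Hsp90aa1, a chaperone of the receptor, had 447 to 801 CPM in HDM and 806 to 969 CPM in HDM + Dex samples, without overlap. Its log2 fold change of 0.45 (SE 0.14) did not pass (limma adjusted p = 0.119).

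The promoter of Sgk1, a kinase gene on this list, is shown because it was the 1 promoter, of 32 found for the list, with the full palindrome to which the receptor binds. Capitals mark AGAACA followed after 3 bases by TGTTC, which matched on both strands with a shift of 1 base.
Sgk1: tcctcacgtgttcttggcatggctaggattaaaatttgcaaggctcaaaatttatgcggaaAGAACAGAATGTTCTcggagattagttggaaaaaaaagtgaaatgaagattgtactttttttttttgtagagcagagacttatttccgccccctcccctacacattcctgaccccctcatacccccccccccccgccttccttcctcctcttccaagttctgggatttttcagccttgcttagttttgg

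This window of 250 bases lies at chr10:21993640-21993889 on the plus strand (RefSeq, GRCm38.p6). The pattern was present in 1 of 32 promoters found for the glucocorticoid-induced list (3.12%) and in 2 of 11583 (0.0173%). The looser GNACA followed after 3 bases by TGTNC was in 3 of the 32 (9.38%) and in 0.337% of all. Sgk1 had 54.8 to 124 CPM in HDM and 62.1 to 105 in HDM + Dex samples, which overlapped (log2 fold change −0.18, SE 0.17, limma adjusted p = 0.729).

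Of 19 genes of the circadian clock 0 were called, where 0.964% of all genes were, and members pointed in opposite directions. Npas2 and Arntl, of the activating arm, had log2 fold changes of 0.92 (SE 0.29, limma adjusted p = 0.125) and 0.72 (SE 0.25, limma adjusted p = 0.173). Arntl had 4.11 to 15.8 CPM in HDM and 10.3 to 17.6 in HDM + Dex samples. Dbp, an output gene of the clock, had 10.7 to 52.9 CPM in HDM and 2.604 to 30.8 in HDM + Dex samples (log2 fold change −1.19, SE 0.52, limma adjusted p = 0.303). The hour of day of tissue collection is not given in the sources used here.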

How the data were processed

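Lung RNA of 24 mice had been sequenced from stranded mRNA libraries (paired-end, aligned with STAR per the study's methods). The deposited table holds CPM that the authors computed from gene counts, with 0.0001 added to each value, and has the same total in every sample. Its coordinates matched GRCm38 (23096 of 23229 symbols found once had the same start in GENCODE vM21), whereas the submitters' processing notes name another build. Low values were whole multiples of a fixed step in 81.1% to 85.8% of cases, so that reads were not recovered and no count test was run. The step of each sample gave its estimated reads.

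Values were analysed as log2(CPM + 1) with limma 3.58.1 in R 4.3.3 (eBayes with trend), in 1 fit of the 19 samples at 80 wk without covariates, and p-values were adjusted by Benjamini-Hochberg over 17744 genes. Single genes were also tested by an exact two-sided permutation test. It was adjusted over all genes tested and not over the named genes as had been planned, since part of those were chosen by their p. Replicate numbers did not pair the samples: the correlation of deviations exceeded 0.1 in 2 of 7 numbers. Sex was read from Xist and Ddx3y.

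Genes were named where they were among the 15 largest called changes in each direction, among the up to 4 members of a list with the lowest p, or on a fixed list of glucocorticoid, airway and inflammatory genes. Members and lists were chosen with earlier results of these data known. In all 12 patterns (X-box, glucocorticoid receptor, forkhead and NF-κB forms) were counted in promoters on both strands, as a description. Alternatives changed the pseudocount, filter, scaling, samples, covariates and test, or left out each sample. The fit was tested on simulated data. Results were summarised with Python 3.11.15, pandas 2.3.3 and scipy 1.17.1.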

Additional observations from a re-analysis of the deposited data

Results flagged for a closer look

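In 29 of 294 groups of values checked, 1 sample stood apart from the other samples of its group by Dixon's test, where chance gives about 1 in 20. HDM replicates 2 and 5 and HDM + Dex replicate 6 held 5 of these each. HDM replicate 3 had 3275 genes without a read (next 1485) and the lowest Sftpc, the surfactant protein C gene, at 1405 CPM (next 2647).

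HDM replicate 2 was lowest in the matrix remodelling score, a mean log2(CPM + 1), at 4.64 (next 5.14), in that of eotaxins and CC chemokines at 2.449 (next 3.22) and in Fbn1, fibrillin-1, at 166 CPM (next 250.2). It was highest in the heart genes Tnni3, at 21.2 CPM (next 7.45), and Myh6, at 326 (next 121). HDM replicate 5 was highest in the immunoglobulin variable score, at 3.88 (next 2.67), in Jchain, at 599 CPM (next 331), in Igkv12-46, at 62.8 (next 21.4), in Ighv1-7, at 14.3 (next 6.07), and in Bpifa1, at 24.2 (next 4.22). Ighg2b was highest in HDM replicate 6, at 109.6 CPM (next 57.8).

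HDM replicate 7, read as female, was highest in the neutrophil score, at 4.83 (next 3.19), in S100a8, at 33.9 CPM (next 12.1), and in S100a9, at 112 (next 30.1). HDM replicate 4 was highest in the mitochondrial genome score, at 8.93 (next 8.55), and in mt-Atp6, at 495 CPM (next 335). HDM replicate 1 was lowest in the immediate-early score, at 4.33 (next 5.24), and highest in Gm21983, at 4.26 CPM (next 2.31).

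In the HDM + Dex group, replicate 6 was highest in Col3a1, at 566 CPM (next 372), Col5a2, at 124 (next 82.5), Il1rn, at 21.5 (next 11.0) and Ighe, at 4.38 (next 0.926), and lowest in Arntl, at 10.3 (next 16.1). Replicate 4 was highest in mt-Nd2, at 694 CPM (next 423), and lowest in the score of neurons and nerve, at 2.53 (next 2.88). Replicate 7 was lowest in the goblet cell score, at 3.09 (next 4.30), and replicate 5 highest in Dusp1, at 269.7 CPM (next 114).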

How the results depend on the processing

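The number of called genes and their split into higher and lower depended on the fit. The 171 calls, where tested, kept their sign and an unadjusted p under 0.05 in each of 37 alternatives. The alternatives reuse most of the samples by which these genes were chosen, so this is no separate test. Against 171 calls, 133 higher and 38 lower, there were 83, 64 and 19 without a filter, 505, 352 and 153 with median-of-ratios rescaling and 526, 372 and 154 with quantile normalization. There were 1, 0 and 1 with only the HDM and HDM + Dex samples, 316, 247 and 69 with all groups in the fit, and 611, 420 and 191 with sample quality weights. Sex as a covariate gave 293, 129 and 164, the 7SL share as a covariate 563, 313 and 250, and leaving out 7SL and rRNA genes 462, 347 and 115. An exact rank test gave 0, 0 and 0 (1614 at an unadjusted p under 0.05). An adjusted p under 0.01 left 2, 1 and 1, and an absolute log2 fold change of at least 1 left 108, 88 and 20. Leaving out 1 sample gave 2 to 544 calls, 1 to 385 higher and 1 to 249 lower.

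With the replicate number as a block 6 genes passed, 0 higher and 6 lower, and 2160 had an unadjusted p under 0.05. Same-numbered samples correlated at −0.24 to 0.41, and only replicate 7 correlated best with its own number. Chosen after seeing the data, rescaling with the block gave 0, 0 and 0 calls (2816 at an unadjusted p under 0.05), rescaling with only the 14 samples 202, 144 and 58, and rescaling with sex as a covariate 543, 324 and 219.

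Pairs of gene and alternative were also counted over a set of 84 genes. The set overlaps only in part with the genes given with values, as Hydin, Cfap44, Ccdc151 and Spag16 are not in it. Of these pairs 2559 stayed on the same side of the threshold, 454 no longer passed and 90 newly passed. The exact test gave 147 of the named genes an unadjusted p under 0.05, as it did 1951 of all 17744 genes tested. Part of the named genes were chosen by their p in these samples, so this count is no separate test. The cause of these differences was not tested. The design holds 7 samples a group of unequal sex, HDM replicate 3 had the fewest reads, and changes in genes near 1 CPM rest on few reads.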
